A study of Homo sapiens with 12 samples.

Results

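Of the 12 libraries in the series, 3 carry replicate number 4 in their titles and 9 carry the numbers 1 to 3, and the gene expression of the former was compared with that of the latter. Each number occurs once with each hairpin, so the 3 libraries of number 4 (scramble, shRNA-B and shRNA-D) had their counterparts in numbers 1, 2 and 3, and the hairpin was held constant in every comparison. All libraries came from HEK 293T cells, a transformed human embryonic kidney line, transduced with lentivirus in the presence of polybrene and collected 72 h later. Cells labelled scramble received a control hairpin, and those labelled shRNA-B or shRNA-D received 1 of 2 hairpins against SIDT2, a lysosomal membrane protein linked to RNA uptake. Poly(A) RNA was sequenced. The series was designed to find transcripts under the control of SIDT2. Its labels call the 4 libraries of a condition biological replicates, and say nothing of what libraries with the same number share (a passage, a day of transduction, a stock of cells or a run).

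HEK 293T cells carry the adenoviral E1A and E1B genes and the large T antigen of SV40, a protein that binds and inactivates p53 and the retinoblastoma protein. The line has an unstable karyotype and co-expresses neuronal, epithelial and mesenchymal genes, including neurofilament and keratin genes and transcription factors of the developing kidney. Subcultures kept apart can therefore differ in chromosome content and in the genes they express.

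Depth was similar across the series, with 80882300 to 102645000 estimated counts per library for number 4 and 68737400 to 95051500 for numbers 1 to 3. Knockdown was alike in number 4: SIDT2 stood at 19.7, 6.75 and 7.55 CPM (the usual depth-normalised count, here with TMM scaling, always given in the order scramble, shRNA-B, shRNA-D), against 18.3 to 21.7 CPM in the other scramble libraries and 5.47 to 8.27 CPM in the other knockdown libraries. The log2 difference of number 4 from numbers 1 to 3 was 0.035 ± 0.13 (SE) for SIDT2, with an adjusted p of 0.89. Genes known from HEK 293 cells, such as VIM, KRT18 and IGF2BP1, were present in all libraries, and their list of 10 summed to 1565 to 1592 CPM in number 4 and 1469 to 1755 CPM elsewhere. The sum hides changes of single members. By the test described below 1 of the 10 was higher (NEFM) and 3 were lower (KRT8, KRT18 and PAX2), with a median log2 difference of -0.25. Over all tested genes 5.7% were higher and 7.52% lower. With number as a random effect 1 member was higher and 1 lower. Defining genes of other cell types were scarce in every library. The list of 10 fibroblast genes summed to 12.1 to 12.9 CPM in number 4 and 13.2 to 23.0 CPM in numbers 1 to 3, with 0 of 5 tested members higher and 2 lower. Leukocyte genes summed to 4.33 to 5.25 against 5.04 to 8.34 CPM, endothelial genes to 0.421 to 0.787 against 0.591 to 1.15 CPM, hepatocyte genes to 0.207 to 0.275 against 0.183 to 0.406 CPM, and keratinocyte genes to 2.55 to 3.20 against 3.68 to 6.10 CPM. The mature neuron list summed to 15.1 to 16.6 against 14.2 to 19.7 CPM.

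Number 4 separated from the other numbers in all 3 hairpin groups. In a principal component analysis of 15869 genes (mean CPM of 1 or more), centred within hairpin groups, the first component held 39.5% of the variance. Its scores were 35.0 to 41.8 for the libraries of number 4 and -22.6 to 1.94 for the 9 others. The second component held 27.3% and set number 1 apart, with scores of 32.8 to 35.1. Numbers 2 and 3 lay together on both. Deviations from the hairpin means correlated at 0.75 to 0.81 between the 3 libraries of number 4, at 0.27 to 0.74 between libraries that shared another number, and at -0.57 to 0.59 between libraries of different numbers (Pearson's r across the same genes, which are not independent).

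**Figure D1:**
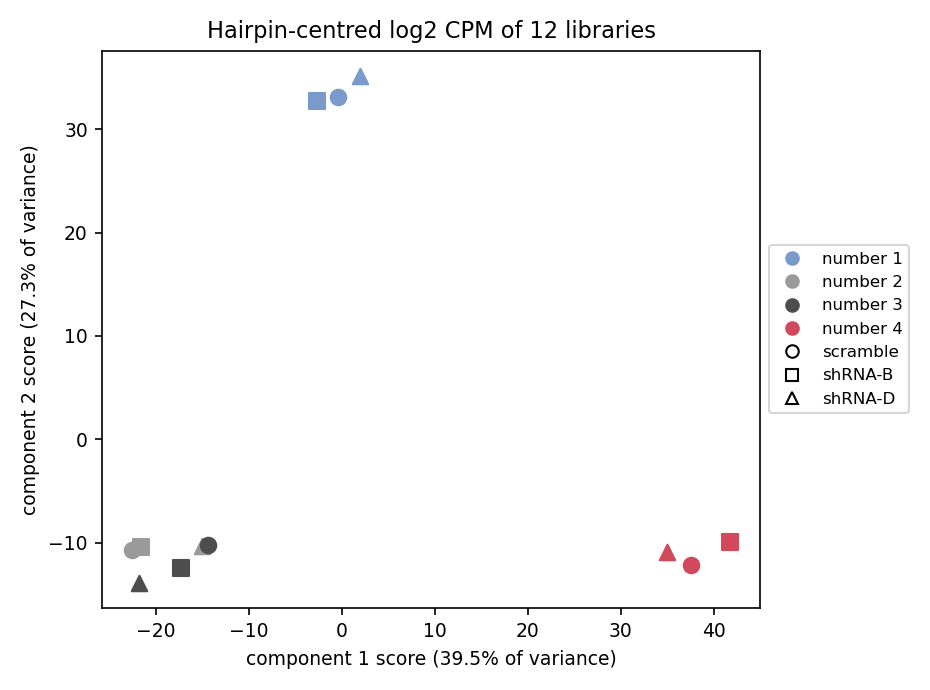
Scores of the 12 libraries on the first and second principal components of hairpin-centred log2 CPM (axes in score units with the share of variance), coloured by replicate number and shaped by hairpin. The 3 libraries of number 4 lie at 35.0 to 41.8 on the first component, and those of number 1 at 32.8 to 35.1 on the second.

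Across 26366 tested genes, 1504 were higher in number 4 and 1984 were lower at an adjusted p under 0.05 (edgeR's quasi-likelihood test with the hairpin as a covariate and Benjamini-Hochberg adjustment), which is 5.7% and 7.52% of the tested genes and 13.2% together. A change beyond 2-fold was found for 283 of the higher and 609 of the lower genes, beyond 4-fold for 34 and 137, and beyond 8-fold for 15 and 55. Losses beyond 4-fold outnumbered gains of that size. The 3 libraries of number 4 lay above all 9 others in CPM for 1669 genes (6.33%) and below them for 1814 (6.88%). The median log2 difference over all tested genes was -0.0035. The counts of calls changed with the way number was modelled: a block for number gave 3684 higher and 4338 lower genes, and with number as a random effect (limma), 336 were higher and 531 lower. Leaving out a single library of number 4 left 477 higher and 837 lower without scramble 4, 414 and 700 without shRNA-B 4, and 701 and 930 without shRNA-D 4. A reference of numbers 2 and 3 alone gave 3165 higher and 3675 lower.

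Pairs of numbers, each with 3 libraries a side, placed this contrast among the others. Number 4 differed from number 1 at 7417 genes (28.1% of those tested), from number 2 at 7540 (28.6%) and from number 3 at 7655 (29%). Number 1 was about as far from number 2 (7267 genes, 27.6%) and from number 3 (7887 genes, 29.9%). Between numbers 3 and 2 edgeR called 0 genes, with 4520 at an unadjusted p under 0.05. Numbers 2 and 3 were the pair closest to each other. Genes lower beyond 2-fold numbered 1012 for number 4 against number 1, 801 against number 2 and 731 against number 3, while 711 genes were higher in number 1 than in number 2 and 401 lower, both beyond 2-fold.

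**Figure D2:**
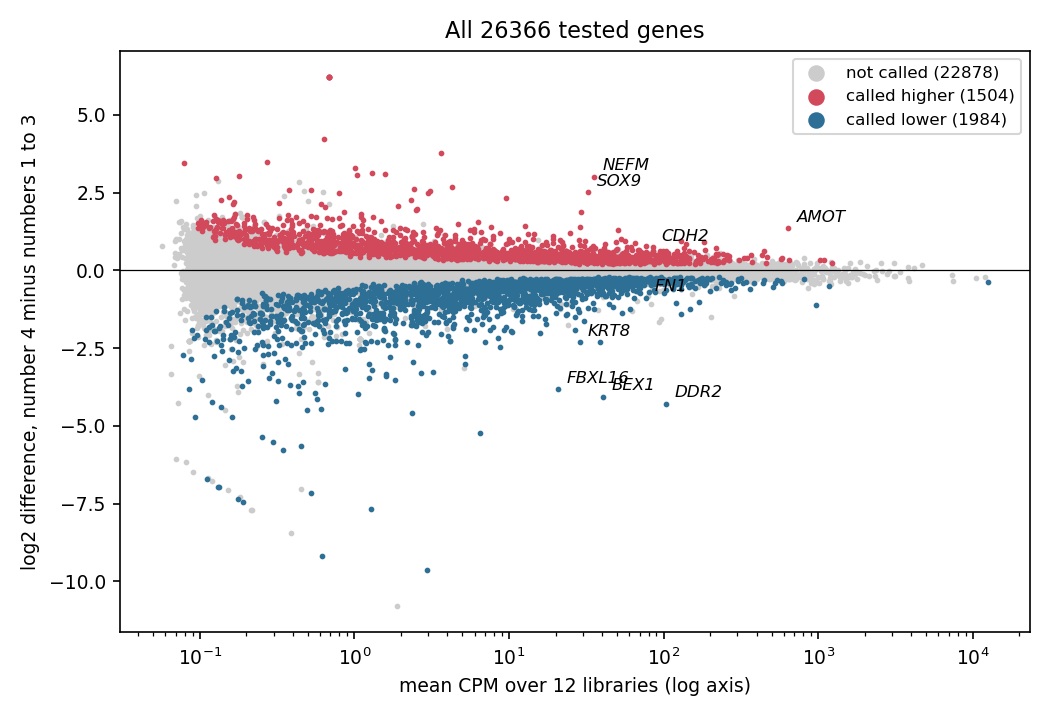
Log2 difference of number 4 from numbers 1 to 3 (y axis) against mean CPM over 12 libraries (log x axis), 1 point per tested gene, with genes called higher in red, called lower in blue and not called in grey. The 1984 lower genes reach larger differences than the 1504 higher genes, with DDR2, BEX1 and FBXL16 far below zero and NEFM and SOX9 far above it.

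Among called genes averaging 5 CPM or more, the largest rise was that of NEFM, the medium neurofilament subunit of the neuronal cytoskeleton. It stood at 105, 119 and 86.5 CPM in number 4 and at 4.22 to 20.9 CPM with a median of 14.9 in the 9 other libraries. Number 1 was the lowest, at 4.22, 5.65 and 4.37 CPM, so the libraries fell into 3 levels without overlap. The log2 difference was 3.01 ± 0.42 against all 9 (adjusted p = 8.3e-04) and 2.62 against numbers 2 and 3. Its partner subunits did not pass the test: NEFL differed by -0.20 on the log2 scale (adjusted p = 0.74) and NEFH by 0.84 (adjusted p = 0.35).

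DDR2, a receptor tyrosine kinase activated by fibrillar collagen, fell from an abundant level to a low but clearly detected one. It was measured at 7.29, 7.39 and 6.25 CPM in number 4, while numbers 1 to 3 gave 94.9 to 176 CPM with a median of 136. The log2 difference was -4.28 ± 0.24 (adjusted p = 7.1e-07). BEX1, a small X-linked adaptor of neurotrophin receptor signalling, fell as evenly: 3.17, 3.26 and 3.07 CPM against 45.3 to 65.1 CPM with a median of 50.7, a log2 difference of -4.06 ± 0.099 (adjusted p = 5.1e-10). FBXL16, an F-box protein of the leucine-rich repeat family, was at 1.83, 1.94 and 2.03 CPM against 23 to 34 CPM with a median of 26.3 (-3.81 ± 0.16, adjusted p = 5.1e-08). In all 3 genes the number 4 libraries were within a narrow band of each other and did not overlap with any other library. Number 4 lay below all other libraries for 6.88% of all tested genes, and these marker genes were chosen with earlier results known.

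KRT8, a keratin of simple epithelia, fell to 7.81, 6.13 and 7.71 CPM against 28.3 to 42.1 CPM with a median of 36 (-2.31 ± 0.087, adjusted p = 2.7e-08). CRABP2, which carries retinoic acid to its nuclear receptors, stood at 11.2, 7.96 and 10.4 against 35.4 to 59.5 CPM with a median of 47.8 (-2.30 ± 0.12, adjusted p = 5.3e-07). KRT8 has many processed copies in the genome, so its estimate carries added uncertainty. Both genes passed the test with any 1 library left out, with number as a random effect and under every scaling tried.

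Other genes lowered without overlap came from several functions. ADGRB1, an adhesion G protein-coupled receptor, was at 0.719 to 1.16 CPM against 3.87 to 9 in the others (-2.75 ± 0.35, adjusted p = 3.7e-04). The GTPase-activating protein gene ARHGAP20 was at 1.59 to 1.89 CPM against 7.23 to 11.5, the neuronal semaphorin mediator CRMP1 at 2.2 to 2.38 CPM against 7.86 to 13.2, the pacemaker channel HCN2 at 3.24 to 3.33 CPM against 10.3 to 15.7 and the zinc finger gene ZNF462 at 2.96 to 3.81 CPM against 10.2 to 15.8. Their log2 differences were -2.30, -2.17, -1.97 and -1.96. STC1, a secreted glycoprotein hormone, was at 0.601 to 1.05 CPM against 2.1 to 11 (-3.03 ± 0.52, adjusted p = 0.0028), but at an adjusted p of 0.065 with number as a random effect. CLU, a secreted chaperone, was at 4.08 to 5.19 CPM against 9.94 to 37.6 (-2.02 ± 0.42, adjusted p = 0.0086), and the call was lost without each single number 4 library (adjusted p 0.069, 0.069 and 0.07 without scramble 4, shRNA-B 4 and shRNA-D 4).

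IGF2, an imprinted fetal growth factor, differed among numbers 1 to 3 as well. It was at 2.61, 1.42 and 2.05 CPM in number 4, 24.7, 17.8 and 22.7 in number 1, 6.51, 4.53 and 6.24 in number 2 and 7.39, 3.78 and 5.19 in number 3. Number 4 was the lowest and number 1 the highest, with numbers 2 and 3 between. The log2 difference from numbers 1 to 3 was -2.46 ± 0.69 (adjusted p = 0.037), and leaving out single libraries ended the call in 7 of 12 cases, with adjusted p-values of 0.079 without scramble 1, 0.067 without shRNA-B 1, 0.069 without shRNA-D 1, 0.051 without shRNA-D 2, 0.16 without scramble 4, 0.19 without shRNA-B 4, 0.15 without shRNA-D 4.

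**Figure D3:**
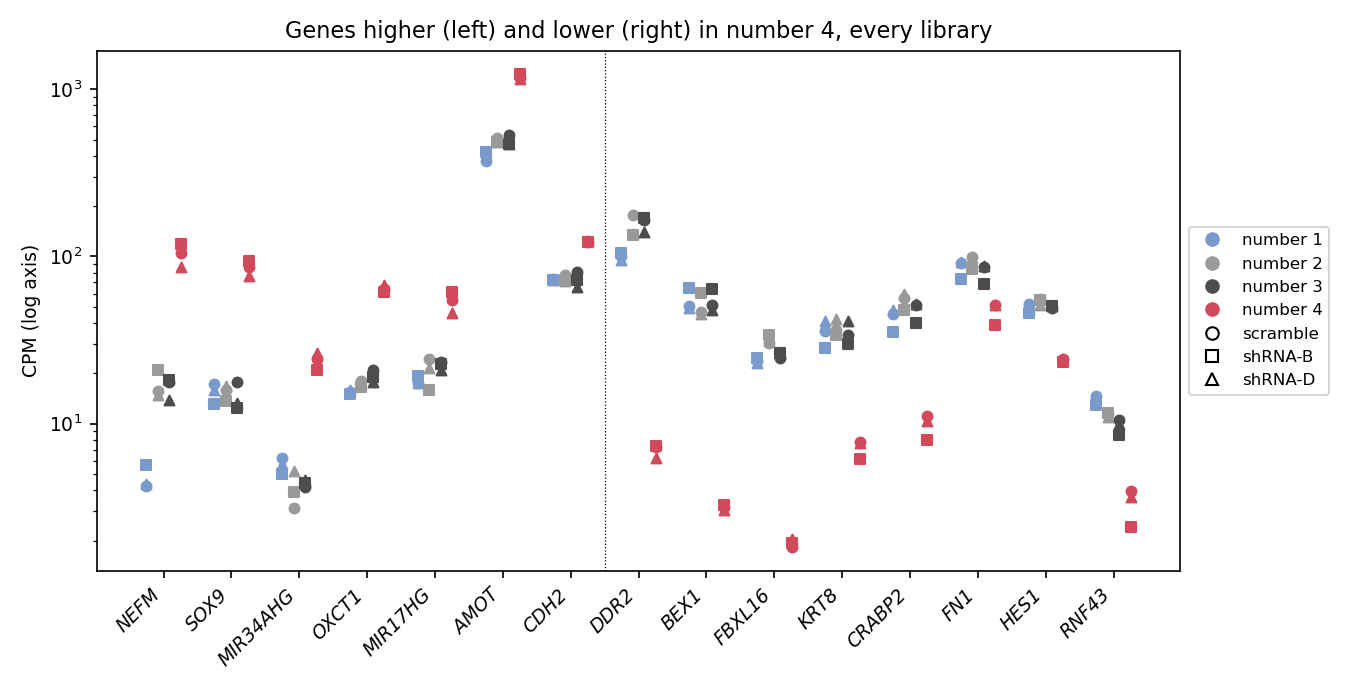
CPM (log axis) of 15 genes in every library, with points coloured by replicate number and shaped by hairpin, and with genes higher in number 4 to the left of the dotted line. The red points of number 4 stand apart from the 9 others for each gene drawn, which was a condition of choice for some of them. NEFM also divides number 1 from numbers 2 and 3.

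Among called genes averaging 5 CPM or more, SOX9 had the largest rise after NEFM. SOX9, a transcription factor of cartilage, gonad and epithelial progenitors, stood at 86.3, 93.3 and 76.3 CPM against 12.4 to 17.9 CPM with a median of 15.8 (2.51 ± 0.095, adjusted p = 2.7e-08). OXCT1, the mitochondrial enzyme that activates ketone bodies for oxidation, was at 63.9, 61.1 and 67.4 against 15.1 to 21 CPM with a median of 17.1 (1.89 ± 0.091, adjusted p = 2.0e-07). AMOT, an angiomotin that holds YAP outside the nucleus, was the most abundant of the group, at 1166, 1226 and 1146 against 375 to 534 CPM with a median of 472 (1.35 ± 0.097, adjusted p = 5.4e-06). Lack of overlap between number 4 and the rest was a condition for choosing these 3 genes. Number 4 lay above all other libraries for 6.33% of all tested genes.

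Smaller rises of 1.19 to 1.56 on the log2 scale were found in the transcriptional corepressor RUNX1T1 (9.81 to 14.4 CPM against 2.39 to 5.62), the R-spondin receptor LGR5 (11.5 to 16.1 CPM against 3.39 to 6.75), TPD52L1 of the D52 family (23.3 to 24.1 CPM against 7.79 to 9.66) and the hormone gene AMH (9.91 to 12.5 CPM against 3.02 to 5.83). The lactosylceramide synthase B4GALT6 (39.3 to 44.9 CPM against 14 to 26.9) and the autophagy kinase ULK2 (14.2 to 15.7 CPM against 3.89 to 8.86) rose as well. Their adjusted p-values lay between 1.1e-06 for TPD52L1 and 0.0064 for ULK2. The non-coding RNAs EOLA2-DT (10.8 to 12 CPM against 3.73 to 7.42) and PURPL (89.9 to 93.4 CPM against 14.7 to 52.8) were higher by 1.24 and 1.31. PURPL, a long non-coding RNA induced by p53, lost its call without shRNA-B 4 (adjusted p = 0.073) and with number as a random effect (adjusted p = 0.089). EOLA2-DT is transcribed opposite to a neighbour, and counts of such genes cannot be told apart from those of the partner where the strand of counting is not known.

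Host transcripts of a pair of microRNA loci were also higher. MIR34AHG, the p53-responsive host of miR-34a, stood at 24.3, 21.1 and 26.4 CPM against 3.15 to 6.21 CPM with a median of 4.61 (2.34 ± 0.15, adjusted p = 2.0e-06). MIR17HG, the host of the growth-promoting miR-17-92 cluster, stood at 55.2, 61 and 45.8 against 15.9 to 24.5 CPM with a median of 20.8 (1.41 ± 0.12, adjusted p = 2.1e-05). Both hosts were chosen among genes without overlap, and number 4 lay above all other libraries for 6.33% of all tested genes. Mature microRNAs were not measured, as poly(A) libraries do not hold them. Their RefSeq sequences (GRCh38.p14) are shown to identify what these hosts encode, 5′ to 3′ with the seed (bases 2 to 8) in capitals. The first is from MIR34AHG at chr1:9151735-9151756 on the minus strand, and the others are from MIR17HG on the plus strand, between chr13:91350618-91350640 for miR-17-5p and chr13:91351361-91351382 for miR-92a-3p. Within the cluster, miR-17-5p and miR-20a-5p share a seed, and so do miR-19a-3p and miR-19b-3p.
hsa-miR-34a-5p: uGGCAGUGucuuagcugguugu
hsa-miR-17-5p: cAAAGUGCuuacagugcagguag
hsa-miR-20a-5p: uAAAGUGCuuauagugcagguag
hsa-miR-18a-5p: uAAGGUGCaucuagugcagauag
hsa-miR-19a-3p: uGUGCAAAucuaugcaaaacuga
hsa-miR-19b-3p: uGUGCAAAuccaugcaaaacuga
hsa-miR-92a-3p: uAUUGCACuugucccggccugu

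Genes of lower abundance included some that were all but absent from number 4 (chosen after their values were seen, among called genes past 8-fold that averaged 1 CPM or more and did not overlap). SAGE1, a cancer-testis antigen gene of the X chromosome, had 0, 1 and 0 estimated counts in number 4 and 262 to 451 in each other library. At 1 count over the 3 libraries no fold is given. CT45A10, of a neighbouring cancer-testis family with near-identical copies, had 2, 0 and 0 counts against 111 to 201, and MAGEB2, another cancer-testis gene on that chromosome, had 19, 10 and 13 against 75 to 230 (-3.45 ± 0.26, adjusted p = 8.7e-06). The tyrosine-degrading enzyme HPD was at 0.0975 to 0.18 CPM against 2.28 to 3.65, the BMP antagonist CHRDL1 at 0.317 to 0.37 CPM against 2.44 to 4.32, the patched-domain gene PTCHD1 at 0.18 to 0.195 CPM against 1.06 to 3.2 and the glycosyltransferase gene GALNT14 at 0.183 to 0.2 CPM against 1.16 to 1.99. Genes nearly silent elsewhere that appeared in number 4 were fewer. KCNJ2, an inward rectifier potassium channel, rose to 10.3, 12.4 and 12.9 CPM from 0.445 to 1.42 CPM with a median of 0.693 (3.77 ± 0.32, adjusted p = 1.6e-05). The sorting nexin SNX19 was at 4.04 to 5.49 CPM against 0.389 to 0.711, the cysteine dioxygenase CDO1 at 2.66 to 4.53 CPM against 0.215 to 0.543 and the PHD finger gene PHF11 at 2.94 to 3.32 CPM against 0.193 to 0.476. Each gene named here was called with any 1 library left out and with number as a random effect.

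Collagens were called in 1 direction. Of 20 tested collagens and collagen receptors, 12, with the marker gene DDR2 among them, were lower and 0 higher in number 4, with a median log2 difference of -0.56 against -0.0035 over all genes and 7.52% of them lower. Most lists here and below hold protein-coding genes. Protein-coding genes averaging 1 CPM or more, a closer background, had 11.8% lower and 5.6% higher (median -0.064). The list had 0 higher and 7 lower with number as a random effect and 0 and 14 with number as a block, and 8, 7 and 8 were lower without scramble 4, shRNA-B 4 and shRNA-D 4. COL5A1, a fibril-regulating collagen, was at 15.8, 11.6 and 14.3 CPM against 27.5 to 37.6 CPM with a median of 33.6 (-1.25 ± 0.09, adjusted p = 5.4e-06), and its partner COL5A2 at 2.78 to 2.84 CPM against 4.87 to 6.4 (-0.98 ± 0.1). The basement membrane chains COL4A1 (38.9 against 60.1 CPM) and COL4A2 (61.2 against 96 CPM) and the beaded-filament chain COL6A1 (68.2 against 112 CPM) fell by 0.63, 0.63 and 0.71. COL1A1 was lower by 0.52 (adjusted p = 0.0079), a call lost without each number 4 library (adjusted p 0.062, 0.076 and 0.092). The other collagen receptors DDR1 (-0.47), ITGA1 (-0.21), ITGA2 (-0.12) and ITGA11 (-0.50) did not pass the test. The summed fibroblast markers given above were also below the range of the other libraries, and their part in these values was not tested.

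The wider matrix and mesenchymal list was split, beside 5.7% of all tested genes higher and 7.52% lower. Of 21 tested members, 8 were lower and 3 higher (median -0.44), with 2 higher and 3 lower with number as a random effect and 4 and 12 with number as a block, and 3, 3 and 2 without scramble 4, shRNA-B 4 and shRNA-D 4. Fibronectin (FN1), the main adhesive glycoprotein of the matrix, was at 51.5, 39.1 and 51.4 CPM against 68.6 to 98.7 CPM with a median of 87.6 (-0.88 ± 0.081, adjusted p = 3.0e-05), and tenascin C (TNC) at 1.68 to 2 CPM against 2.74 to 4.91 (-1.01 ± 0.13, adjusted p = 4.7e-04). N-cadherin (CDH2), a mesenchymal and neural adhesion protein, moved the other way, at 121, 121 and 123 against 65.5 to 81.3 CPM with a median of 72.3 (0.74 ± 0.062, adjusted p = 1.5e-05). Vimentin (VIM) differed by -0.24 and did not pass the test (adjusted p = 0.08). Among integrins and other adhesion genes, 5 of 19 were lower and 1 higher (median -0.12), with 3 lower when any 1 library of number 4 was left out. That list had 1 higher and 3 lower with number as a random effect and 3 and 8 with number as a block. The one that rose was ITGB8, which binds latent TGF-beta, at 2.57 to 3.58 CPM against 0.773 to 1.42 (1.59 ± 0.16), and the fibronectin receptor subunit ITGA5 fell, at 25.9 to 30.5 CPM against 36.8 to 50.5 (-0.54 ± 0.091).

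Epithelial genes were called mostly lower, beside 5.7% of all tested genes higher and 7.52% lower. In the list of simple epithelial genes, 7 of 16 were lower and 1 higher (median -0.40), with 3 lower without any 1 library of number 4. It had 0 higher and 2 lower with number as a random effect and 2 and 7 with number as a block. KRT8 is described above. P-cadherin (CDH3) was at 0.691 to 0.958 CPM against 2.58 to 4.21 (-1.98 ± 0.15, adjusted p = 8.1e-06) and the membrane protease ST14 at 0.0609 to 0.123 CPM against 0.354 to 0.725 (-2.38 ± 0.31, adjusted p = 4.2e-04; 0.051 with the random effect). KRT18, which pairs with KRT8, fell by only 0.40 (adjusted p = 0.021), and its call was lost in 4 of the 12 fits that left out a library (adjusted p 0.051 without scramble 2, 0.11 without scramble 4, 0.17 without shRNA-B 4, 0.14 without shRNA-D 4) and when libraries were scaled by their totals (adjusted p = 0.10). Whether KRT8 and KRT18 changed by different amounts was not tested. The keratinocyte markers, whose summed level is given above, were also below the range of the other libraries, and their part in these values was not tested.

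Within the BEX and TCEAL family, X-linked small proteins of which several act in neurons, 5 of 11 were lower and 0 higher (median -0.25). Over all tested genes 7.52% were lower and 5.7% higher. The family had 0 higher and 3 lower with number as a random effect and 0 and 8 with number as a block. BEX2 was at 30.6, 30.1 and 30.5 CPM against 45.8 to 58.3 CPM with a median of 53.6 (-0.80 ± 0.079, adjusted p = 5.2e-05), and BEX5 at 1.16 to 1.48 CPM against 2.95 to 4.23 (-1.41 ± 0.14, adjusted p = 6.9e-05). TCEAL7 was lower by 2.29 (adjusted p = 0.0038; 0.10 with the random effect), and BEX3 by 0.25 (adjusted p = 0.021, but 0.11 without scramble 4, 0.14 without shRNA-B 4, 0.092 without shRNA-D 4), while BEX4 (-0.17) did not pass. BEX1 and BEX2 are similar in sequence and may share reads. The fall was steepest in BEX1 and slight in BEX3.

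Neuronal genes did not follow NEFM, and their counts stand beside 5.7% of all tested genes higher and 7.52% lower. Of 16 neurofilament and neuronal cytoskeleton genes, 1 was higher (NEFM) and 2 lower (CRMP1 and TUBB3), which is near those shares. Their median was -0.17, with 1 higher and 1 lower with number as a random effect and 4 and 6 with number as a block. TUBB3, neuronal tubulin, fell by 0.55 (adjusted p = 0.033), and lost the call in 6 of 12 fits that left out a library (adjusted p 0.052 without scramble 2, 0.05 without shRNA-B 2, 0.055 without shRNA-D 2, 0.13 without scramble 4, 0.21 without shRNA-B 4, 0.18 without shRNA-D 4). Neuronal surface and synapse genes had 6 of 15 lower and 1 higher (median -0.16), with 1 in each direction when any 1 library of number 4 was left out. There were 1 higher and 1 lower with number as a random effect and 1 and 6 with number as a block. NCAM1, a neural adhesion molecule, was at 23.9 to 29.7 CPM against 34.8 to 60.3 (-0.73 ± 0.14, adjusted p = 0.0043; 0.052 without shRNA-B 4), and the vesicle SNARE VAMP2 was higher, at 53.4 to 55.3 CPM against 29.2 to 40.2 (0.63 ± 0.072, adjusted p = 1.5e-04). Of 14 neuronal transcription factors, 3 were lower and 1 higher (1, 1 and 2 lower without scramble 4, shRNA-B 4 and shRNA-D 4), with 1 higher and 1 lower with number as a random effect and 3 and 5 with number as a block. GATA3 was at 5.75 to 7.59 CPM against 9.86 to 13.6 (-0.85 ± 0.11) and the motor neuron factor ISL1 at 16.3 to 17.6 CPM against 9.17 to 10.6 (0.74 ± 0.072). RBFOX3, a splicing factor of mature neurons, was at 0.402 to 0.664 CPM against 1.61 to 3.38 (-2.20 ± 0.26, adjusted p = 2.1e-04). Of the 8 mature neuron markers it was the only 1 called, and 7 were not called. The median of that list was 0.020, with 4 members above zero and 4 below.

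Genes of kidney development and body patterning came next, beside 5.7% of all tested genes higher and 7.52% lower. In the nephron progenitor list, 2 of 18 were higher and 4 lower (median -0.23), with 1 lower when any 1 library of number 4 was left out. There were 2 higher and 1 lower with number as a random effect and 2 and 6 with number as a block. EYA1, a coactivator of kidney progenitors, was at 32.1, 33.5 and 32 CPM against 11.6 to 18.8 CPM with a median of 15 (1.12 ± 0.14, adjusted p = 3.2e-04), and CITED1 at 11 to 11.7 CPM against 5.3 to 7.72 (0.86 ± 0.11). RET, the GDNF receptor of the ureteric bud, was at 2.61 to 3.54 CPM against 4.19 to 8.23 (-1.03 ± 0.18, adjusted p = 0.0033). Of the HOX genes, which set position along the body axis, 11 of 26 were higher and 0 lower beside 5.7% of all genes higher, 23 had a positive difference, and the median was 0.16. HOXA4 was at 10.5 to 14.3 CPM against 7.35 to 9.23 (0.56 ± 0.091, adjusted p = 0.0018) and HOXD9 at 27.1 to 39.2 CPM against 18.2 to 25.3 (0.54 ± 0.086, adjusted p = 0.0016; 0.056 with the random effect). The HOX list had 1 higher and 0 lower with number as a random effect and 14 and 1 with number as a block, and 18 higher and 1 lower against numbers 2 and 3 alone. It had 4, 2 and 5 higher without scramble 4, shRNA-B 4 and shRNA-D 4. The median lay between 0.16 and 0.20 under the scalings tried.

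Signalling genes are given by pathway, beside 5.7% of all tested genes higher and 7.52% lower. For receptor tyrosine kinases, 8 of 33 were lower and 1 higher (median -0.29), with 1 higher and 6 lower with number as a random effect and 3 and 16 with number as a block. Beside DDR2 and RET, the Wnt co-receptor ROR2 was at 3.09 to 4.9 CPM against 7.46 to 13.8 (-1.35 ± 0.15, adjusted p = 1.5e-04), the ephrin receptor EPHA4 at 28.4 to 31.7 CPM against 44.1 to 58.9 (-0.72 ± 0.091, adjusted p = 3.3e-04) and the stem cell factor receptor KIT at 18.1 against 25.7 CPM on average (-0.51 ± 0.079, adjusted p = 0.0013). ERBB2 was the one that rose, at 37.8 to 41.3 CPM against 22.1 to 30.4 (0.64 ± 0.084, adjusted p = 4.5e-04). Of 17 Wnt targets and feedback genes, 4 were lower and 1, LGR5, higher (median -0.31), and 2 were lower without any 1 library of number 4. The list had 1 higher and 2 lower with number as a random effect and 2 and 9 with number as a block. RNF43, a ubiquitin ligase that removes Wnt receptors, was at 3.95, 2.4 and 3.65 CPM against 8.57 to 14.6 CPM with a median of 11.4 (-1.82 ± 0.19, adjusted p = 6.7e-05), and cyclin D1 (CCND1) at 8.1 to 13.9 CPM against 20.3 to 43.4 (-1.40 ± 0.21, adjusted p = 0.0011). AXIN2, the usual reporter of Wnt signalling, differed by 0.15 and did not pass.

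In the Notch list 4 of 19 were lower and 1 higher (median -0.20), with 2 lower when any 1 library of number 4 was left out. There were 0 higher and 1 lower with number as a random effect and 3 and 7 with number as a block. Its effector HES1, a repressor of differentiation genes, was at 24.3, 23.5 and 24.3 CPM against 45.8 to 55.4 CPM with a median of 50.9 (-1.09 ± 0.076, adjusted p = 4.7e-06). Of 19 retinoic acid genes, 6 were lower and 3 higher (median -0.20), and 3, 2 and 3 were lower and 1 higher without scramble 4, shRNA-B 4 and shRNA-D 4. They had 1 higher and 2 lower with number as a random effect and 6 and 12 with number as a block. The binding protein CRABP2 and the receptor RARG (5.34 to 8.26 CPM against 8.17 to 15.9, -0.96 ± 0.12) fell, and RDH10, which makes retinaldehyde from retinol, rose (45.1 to 52.9 CPM against 25.1 to 33.1, 0.70 ± 0.073). TGF-beta and BMP targets had 6 of 17 lower and 0 higher (median -0.30), but 1, 0 and 0 lower without scramble 4, shRNA-B 4 and shRNA-D 4. There were 0 higher and 1 lower with number as a random effect and 0 and 10 with number as a block. ID1, a BMP target, was at 3.41 to 4.87 CPM against 6.19 to 11.5 (-0.89 ± 0.19, adjusted p = 0.008; 0.073 with the random effect, and 0.07 without scramble 4, 0.079 without shRNA-B 4, 0.051 without shRNA-D 4). YAP and TEAD targets had 3 of 20 lower and 0 higher (median -0.14; 2, 1 and 1 without scramble 4, shRNA-B 4 and shRNA-D 4), and 0 higher and 1 lower with number as a random effect and 0 and 6 with number as a block. GADD45B fell (5.71 to 7.97 CPM against 10.2 to 16.3, -1.04 ± 0.15). CCN1 (-1.14, adjusted p = 0.020) and CCN2 (-0.77, adjusted p = 0.0066) were also called lower. Neither was called with number as a random effect (adjusted p 0.097 and 0.081).

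Immediate early genes, which respond within minutes to serum and handling, had the lowest median of the pathway and gene family lists, -0.64, with 24 of 28 members below zero. By the test 6 were lower and 2 higher, beside 7.52% and 5.7% of all tested genes. The list had 1 higher and 3 lower with number as a random effect and 2 and 19 with number as a block. Number 1 was low as well: against numbers 2 and 3 the list's median was -0.61 in number 1 and -0.70 in number 4. ZFP36, which destabilises AU-rich mRNAs, was at 1.72 to 2.33 CPM against 3.4 to 4.52 (-0.99 ± 0.13, adjusted p = 5.5e-04) and JUNB at 7.66 to 9.28 CPM against 12.6 to 18.4 (-0.82 ± 0.11, adjusted p = 5.7e-04), while FOSL1 was higher (1.67 to 2.2 CPM against 0.556 to 1.19, 1.20 ± 0.20). FOS (-1.76, adjusted p = 0.073) and EGR1 (-1.55, adjusted p = 0.058) had large differences that did not pass. Against numbers 2 and 3 alone, 22 of 28 were lower in number 4. Without scramble 4, shRNA-B 4 and shRNA-D 4 the test called 4, 4 and 3 lower.

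Interferon response and antigen presentation genes were called in 1 direction, beside 7.52% of all tested genes lower and 5.7% higher. Of 28 tested members 11 were lower and 0 higher (median -0.34), with 0 higher and 3 lower with number as a random effect and 0 and 11 with number as a block, and 6, 4 and 5 were lower without scramble 4, shRNA-B 4 and shRNA-D 4. The class I heavy chain HLA-B was at 51.1, 44.2 and 47 CPM against 68.8 to 87.6 CPM with a median of 78 (-0.72 ± 0.082, adjusted p = 1.5e-04), and HLA-C at 96.6 to 106 CPM against 121 to 159 (-0.46 ± 0.078, adjusted p = 0.0025; 0.052 with the random effect and 0.057 without shRNA-B 4). The near-identical HLA genes share reads. BST2, which tethers budding enveloped viruses, was at 0.26 to 0.317 CPM against 0.976 to 2.24 (-2.34 ± 0.32, adjusted p = 5.6e-04), and PARP9 at 5 to 5.74 CPM against 6.92 to 9.33 (-0.60 ± 0.10). Sensitive responders such as ISG15 (0.28), MX1 (0.089), OAS1 (0.59) and IFI27 (0.15) did not pass. NF-kB targets had 0 of 13 called by edgeR, and 4 lower with number as a block.

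Iron storage and antioxidant genes changed in part, beside 7.52% of all tested genes lower and 5.7% higher. Of 24 members 5 were lower and 1 higher (median -0.066), with 1 higher and 4 lower with number as a random effect and 2 and 8 with number as a block. Haem oxygenase (HMOX1) was at 7.81, 8.02 and 7.81 CPM against 11.6 to 15.7 CPM with a median of 14.2 (-0.84 ± 0.097, adjusted p = 1.8e-04), the quinone reductase NQO1 at 5.26 against 10.2 CPM on average (-0.95 ± 0.15, adjusted p = 0.0017) and the ferritin light chain FTL at 175 to 203 CPM against 254 to 332 (-0.63 ± 0.092, adjusted p = 9.5e-04). The selenoproteins GPX1 and GPX4, both of which reduce peroxides, moved in opposite directions: GPX1 was at 114 to 118 CPM against 65.1 to 85 (0.61 ± 0.084, adjusted p = 5.5e-04) and GPX4 at 155 to 166 CPM against 199.95 to 291 (-0.57 ± 0.086, adjusted p = 0.0011). FTL and GPX1 have processed copies, which adds uncertainty. Other NRF2 targets such as GCLM (0.19), TXNRD1 (-0.032) and SRXN1 (0.0) did not pass.

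Glucose-sensing and insulin-response genes had 6 of 19 lower and 0 higher (median -0.41), beside 7.52% and 5.7% of all tested genes. The list had 4, 3 and 4 lower without scramble 4, shRNA-B 4 and shRNA-D 4. There were 0 higher and 3 lower with number as a random effect and 1 and 12 with number as a block. IGFBP5, which binds insulin-like growth factors, was at 10.5 to 20.01 CPM against 20.9 to 52.3 (-1.22 ± 0.11, adjusted p = 2.5e-05). TXNIP, induced by glucose, was at 27.4 to 36.3 CPM against 37 to 61.2 (-0.68 ± 0.096, adjusted p = 7.7e-04) and TRIB2 at 5.61 to 7.1 CPM against 7.18 to 14.4 (-0.92 ± 0.18, adjusted p = 0.0051). In the amino acid response list 1 of 26 was lower (3 higher and 5 lower with the block): VLDLR, a lipoprotein receptor, at 9.19 to 11.6 CPM against 15.7 to 23 (-0.93 ± 0.082, adjusted p = 2.0e-05). Hypoxia and glycolysis genes had 27 of 31 below zero (median -0.32) and 2 called lower, with 0 higher and 0 lower with number as a random effect and 2 and 20 with number as a block. Their median against numbers 2 and 3 was -0.97 in number 1, further down than the -0.60 of number 4, and 25 of 31 were lower in number 4 against that reference. Neither call was kept when any 1 library of number 4 was left out.

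Mitotic genes were called lower and few S phase genes were called, beside 7.52% of all tested genes lower and 5.7% higher. Of 31 G2/M genes 10 were lower and 0 higher, 30 lay below zero, and the median was -0.29. The list had 0 higher and 2 lower with number as a random effect and 0 and 18 with number as a block, 2, 1 and 5 lower without scramble 4, shRNA-B 4 and shRNA-D 4, and 5 when libraries were scaled by their totals. CENPA, the centromeric histone, was at 18, 18.8 and 18.4 CPM against 24 to 28.5 CPM with a median of 25.6 (-0.49 ± 0.081, adjusted p = 0.0019). Cyclin B1 (CCNB1) was at 214 to 224 CPM against 242 to 339.9 (-0.42 ± 0.084, adjusted p = 0.0065; 0.066 without scramble 4 and 0.091 without shRNA-B 4). Of 30 G1/S and replication genes 1 was higher and 1 lower (median -0.015; 3 and 4 with the block), and 0 without any 1 library of number 4. The p53 target list had 5 of 25 higher and 0 lower (median 0.094), with 1 higher without each single number 4 library. There were 0 higher and 0 lower with number as a random effect and 11 and 2 with number as a block, and 12 higher and 1 lower against numbers 2 and 3 alone. MDM2, the ubiquitin ligase of p53, was at 199 to 236 CPM against 132 to 191 (0.42 ± 0.078, adjusted p = 0.0041; 0.086 with the random effect), and CDKN1A differed by 0.18 without passing.

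Several housekeeping programmes had few or no calls in edgeR's test without a block, beside 5.7% of all tested genes higher and 7.52% lower, and more with number as a block. Cytosolic ribosomal protein genes had 0 of 46 called in edgeR's test (18 lower with number as a block), although 45 lay below zero with a median of -0.19. Replication-dependent histone genes had 0 of 19 (1 higher and 4 lower with the block), the circadian list 0 of 18 (3 and 4 with the block), the cholesterol list 1 of 24 (4 and 8), the unfolded protein response 1 of 24 (1 and 8), and nuclear-encoded respiratory chain genes 1 of 35 in each direction (1 and 3). Heat shock genes had 1 of 21 higher and 2 lower (3 and 3 with the block), and 0 and 1 when any 1 library of number 4 was left out. The small chaperone HSPB8 was at 0.751 to 1.13 CPM against 1.86 to 3.98 (-1.65 ± 0.21, adjusted p = 3.9e-04), while HSPA8 (-0.086) and HSP90AA1 (-0.026) did not pass. Ribosome assembly genes had 1 of 24 higher (4 higher and 3 lower with the block). Among F-box adaptors, the family of FBXL16, 2 of 19 were higher and 2 lower (4 and 4 with the block): FBXL19 rose (65.8 to 74.3 CPM against 45.3 to 51.9, 0.54 ± 0.058) and FBXL7 fell (0.13 to 0.266 CPM against 0.394 to 1.12, -1.73 ± 0.28), as did FBXL16.

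**Figure D4:**
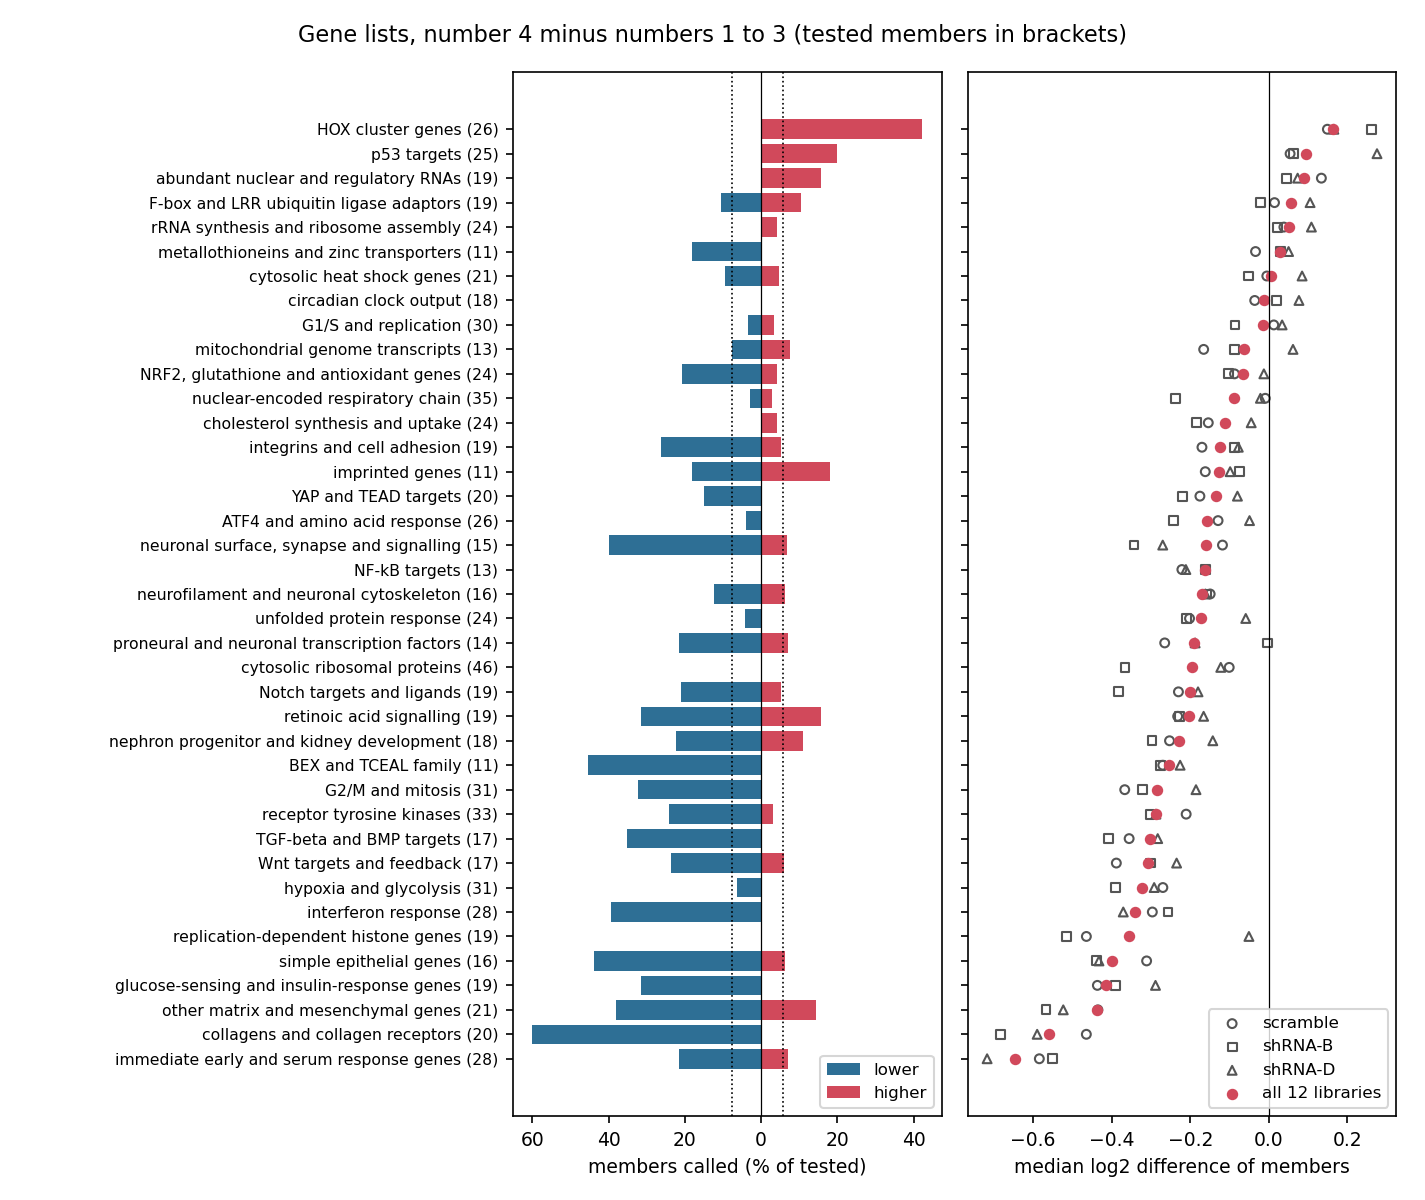
Left, share of tested members (in brackets after each list's name) called lower (blue) and higher (red) in number 4, in percent, with dotted lines at the shares over all tested genes (7.52% lower, 5.7% higher). For protein-coding genes averaging 1 CPM or more these shares were 11.8% and 5.6%. Right, the median log2 difference of each list in all 12 libraries (red) and within each hairpin group (open symbols). Collagens, BEX and TCEAL genes and simple epithelial genes have the largest shares of lower genes, and HOX genes the largest share of higher genes.

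Genes whose pattern over the 12 libraries (hairpin-centred log2 CPM) was most like that of the 4 marker genes were listed as a description. BEX1 was close to KRT8 (Pearson's r = 0.995) and DTX3 (0.993). FBXL16 was closest to the non-coding RNA LINC01694 (0.999), CRABP2 (0.998) and KRT8 (0.996), and DDR2 to the glutathione transferase MGST1 (0.997), the endocytic adaptor DAB2 (0.994) and CRABP2 (0.993). NEFM was closest to TRAF3IP2-AS1 (0.989), ULK2 (0.987) and the cold-inducible RNA-binding protein RBM3 (0.987), which like NEFM were lowest in number 1. RBM3 stood at 296, 289 and 290.3 CPM in number 4, 219, 218 and 203 in number 2 and 179, 168 and 167 in number 1.

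Promoters were examined as a description, over the 250 bases before the start of 10036 tested genes with a single start in the RefSeq table. Fewer than 10 CpG dinucleotides were present there in 17.5% of the called higher and 18.4% of the called lower genes, against 18.8% of all tested promoters. Beyond 2-fold the shares were 36.2% of 80 higher and 33.2% of 244 lower genes, which were not matched to all promoters for abundance. The share moved with abundance. At a mean of 5 CPM or more it was 6.32% of higher, 11.4% of lower and 6.55% of all tested promoters, without a fold limit. The E-box CACGTG, on either strand, was in 12.8% of promoters of higher genes, 6.08% of lower genes and 8.57% of all, but in 7.5% and 5.74% of those beyond 2-fold higher and lower. GGGCGG was in 63.4%, 71.2% and 65.0% of higher, lower and all promoters, and in 43.8% and 59.0% of those beyond 2-fold. The share for CACGTG in higher genes, and that for GGGCGG in lower genes, was thus above that of all promoters without a fold limit and below it beyond 2-fold. For CCAAT the shares of higher, lower and all promoters were 34.4%, 34.6% and 35.8%, and for TATAAA 4.55%, 5.86% and 6.35%. TGACGTCA was in 1.69%, 2.18% and 3.03%, GGAATG in 9.78%, 9.07% and 9.49% and TGACTCA in 2.36%, 1.84% and 2.78%. CCAAT and CACGTG matched in the bases before the listed start of BEX1, and none of the 7 motifs matched before those of KRT8 and CRABP2. Whether these listed starts are the ones used in these cells was not tested. The sequences of these 3 genes, which fell together, are printed 5′ to 3′ on the gene's strand with CpG in capitals. They hold 19, 1 and 18 CpG and lie in GRCh38.p14 on the minus strand, at chrX:103064172-103064421, chr12:52926470-52926719 and chr1:156705785-156706034.
BEX1: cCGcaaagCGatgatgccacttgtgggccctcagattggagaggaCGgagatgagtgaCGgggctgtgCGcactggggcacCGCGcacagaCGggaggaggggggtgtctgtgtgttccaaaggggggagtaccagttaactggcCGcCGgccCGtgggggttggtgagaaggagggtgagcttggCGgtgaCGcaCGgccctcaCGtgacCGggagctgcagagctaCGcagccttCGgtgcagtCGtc
KRT8: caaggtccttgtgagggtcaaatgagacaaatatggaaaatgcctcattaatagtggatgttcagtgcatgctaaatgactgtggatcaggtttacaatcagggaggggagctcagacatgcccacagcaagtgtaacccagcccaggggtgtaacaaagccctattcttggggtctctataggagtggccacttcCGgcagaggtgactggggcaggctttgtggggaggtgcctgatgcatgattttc
CRABP2: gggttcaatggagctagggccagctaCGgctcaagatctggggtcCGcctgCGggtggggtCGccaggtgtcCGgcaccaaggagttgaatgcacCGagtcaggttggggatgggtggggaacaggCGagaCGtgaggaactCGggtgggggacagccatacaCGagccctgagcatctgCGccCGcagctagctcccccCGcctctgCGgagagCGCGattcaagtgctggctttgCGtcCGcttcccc

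The difference of number 4 was next compared between hairpins. The interaction of number 4 with hairpin group was called at 0 of 26366 genes by edgeR, with 279 (1.06%) at an unadjusted p under 0.05 and a lowest adjusted p of 0.092. That share is below the 0.05 a calibrated test gives where no interaction exists. The spread among numbers 1 to 3 stays in the error of this fit, so 0 calls do not show that the hairpins were alike. With the number as a block, 598 genes had an unadjusted p under 0.05 in edgeR's interaction test. DESeq2's likelihood ratio test called 18, and edgeR with the number as a block called 4, DSEL (adjusted p = 0.034) and 3 identifiers without a symbol, named here after their values were seen. DSEL, an epimerase of dermatan sulphate synthesis, was also called by DESeq2. Within single hairpin groups number 4 differed at 127 genes for scramble (34 higher, 93 lower), 196 for shRNA-B (63 and 133) and 162 for shRNA-D (48 and 114). NEFM differed by 3.07 log2 units in the scramble, 3.0 in the shRNA-B and 2.97 in the shRNA-D libraries, and BEX1 by -3.96, -4.27 and -3.95.

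Classes of transcript shifted differently. Of all 15869 tested genes averaging 1 CPM or more, 6.95% were higher and 10.2% lower (median log2 difference -0.042). Among them, 5.6% of 12591 protein-coding genes were higher and 11.8% lower (median -0.064). Antisense RNAs had 18.5% of 596 higher and 2.68% lower (median 0.18), and long intergenic RNAs 15.4% of 514 higher and 3.5% lower (median 0.16). The antisense median was also above zero in number 1 against numbers 2 and 3 (0.13). Processed pseudogenes had 0 of 71 higher and 9 (12.7%) lower, the latter near the share of all these genes (median -0.27). As a share of all counts, antisense RNA took 0.404% to 0.412% in number 4 and 0.311% to 0.399% in the others, without overlap (exact permutation within hairpin groups, two-sided p = 0.0156, the smallest it allows, and 0.17 after adjustment over 11 library measures). That permutation treats the libraries of number 4 as independent, although libraries with the same number deviated together. Permuting the numbers as wholes could not give a p below 0.25. The strand of counting is not known, so antisense counts may include reads of the gene opposite. Library total, mitochondrial share, histone share and the share of the 100 most abundant genes overlapped between number 4 and the rest, and the part of these measures in the gene differences was not tested.

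Neighbouring genes shifted together in several chromosome regions. Protein-coding genes averaging 5 CPM or more (10762) were placed in chromosome order in 359 windows of about 30 genes, a rule set after the data were seen. The median log2 difference was over 0.2 above the overall median of -0.054 in 21 windows and over 0.2 below it in 5. The highest window ran from PCDH9 to UGGT2 on chromosome 13, with a median of 0.49, 16 of 30 genes higher and 0 lower, beside 5.7% higher over all tested genes. On chromosome 18 the window from CABYR to MOCOS had a median of 0.47, with all 30 genes above zero and 19 higher. On chromosome 4 the window from SLC7A11 to NR3C2 had 0.35, with 10 higher and 0 lower. Windows on the end of the X chromosome, from SLC25A43 to VAMP7, covered 113 genes with a median of 0.22, 27 higher and 3 lower. The longest run of lower genes, from TRNT1 to ZNF621 on chromosome 3, held 120 genes with a median of -0.28, 2 higher and 43 lower. Among all 12084 tested genes averaging 5 CPM or more, of any type, 745 were higher and 1116 lower.

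In each of these regions the 3 libraries of number 4 lay on the same side of all 9 others. The median deviation from the hairpin mean was 0.41, 0.55 and 0.53 in number 4 for the chromosome 13 window, against -0.27 to 0.26 elsewhere. For the chromosome 3 run it was -0.33, -0.32 and -0.20, against -0.10 to 0.06. Across whole chromosomes, the medians were highest on chromosomes 10 (0.12, with 63 of 431 genes higher and 19 lower) and 17 (0.081, 84 of 644 higher and 30 lower) and lowest on chromosomes 3 (-0.16, 18 of 623 higher and 117 lower) and 14 (-0.14). On chromosome 18, 32 of 161 genes were higher and 6 lower. Of protein-coding genes averaging 1 CPM or more, 5.6% were higher and 11.8% lower. The shares on single chromosomes were 14.6% higher on 10, 13.0% higher on 17, 19.9% higher on 18 and 18.8% lower on 3. Named genes inside a shifted window included MIR17HG on chromosome 13, CDH2 and B4GALT6 on chromosome 18 and VAMP2 on chromosome 17, all higher like their neighbours, while L1CAM on the X chromosome (-1.15 ± 0.28, adjusted p = 0.019; 0.13 with number as a random effect, 0.16 without scramble 4, 0.12 without shRNA-D 4) and RET on chromosome 10 were lower in windows that rose. SAGE1 and CT45A10, described above, lie in the same X chromosome windows and were also lower.

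Windows beyond 0.2 were also found in contrasts without number 4. Between numbers 3 and 2, where edgeR called 0 genes, 31 windows lay over 0.2 above the median of that contrast and 0 below, and between number 1 and numbers 2 and 3 there were 5 above and 2 below. The highest windows of these contrasts reached 0.37 and 0.23, against 0.49 for number 4. The lowest were at -0.16 for number 3 against 2 and at -0.33 for number 1 against 2 and 3, the latter below the lowest of number 4, -0.29. DNA content was not measured, and the part of gene dosage in these shifts was not tested.

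**Figure D5:**
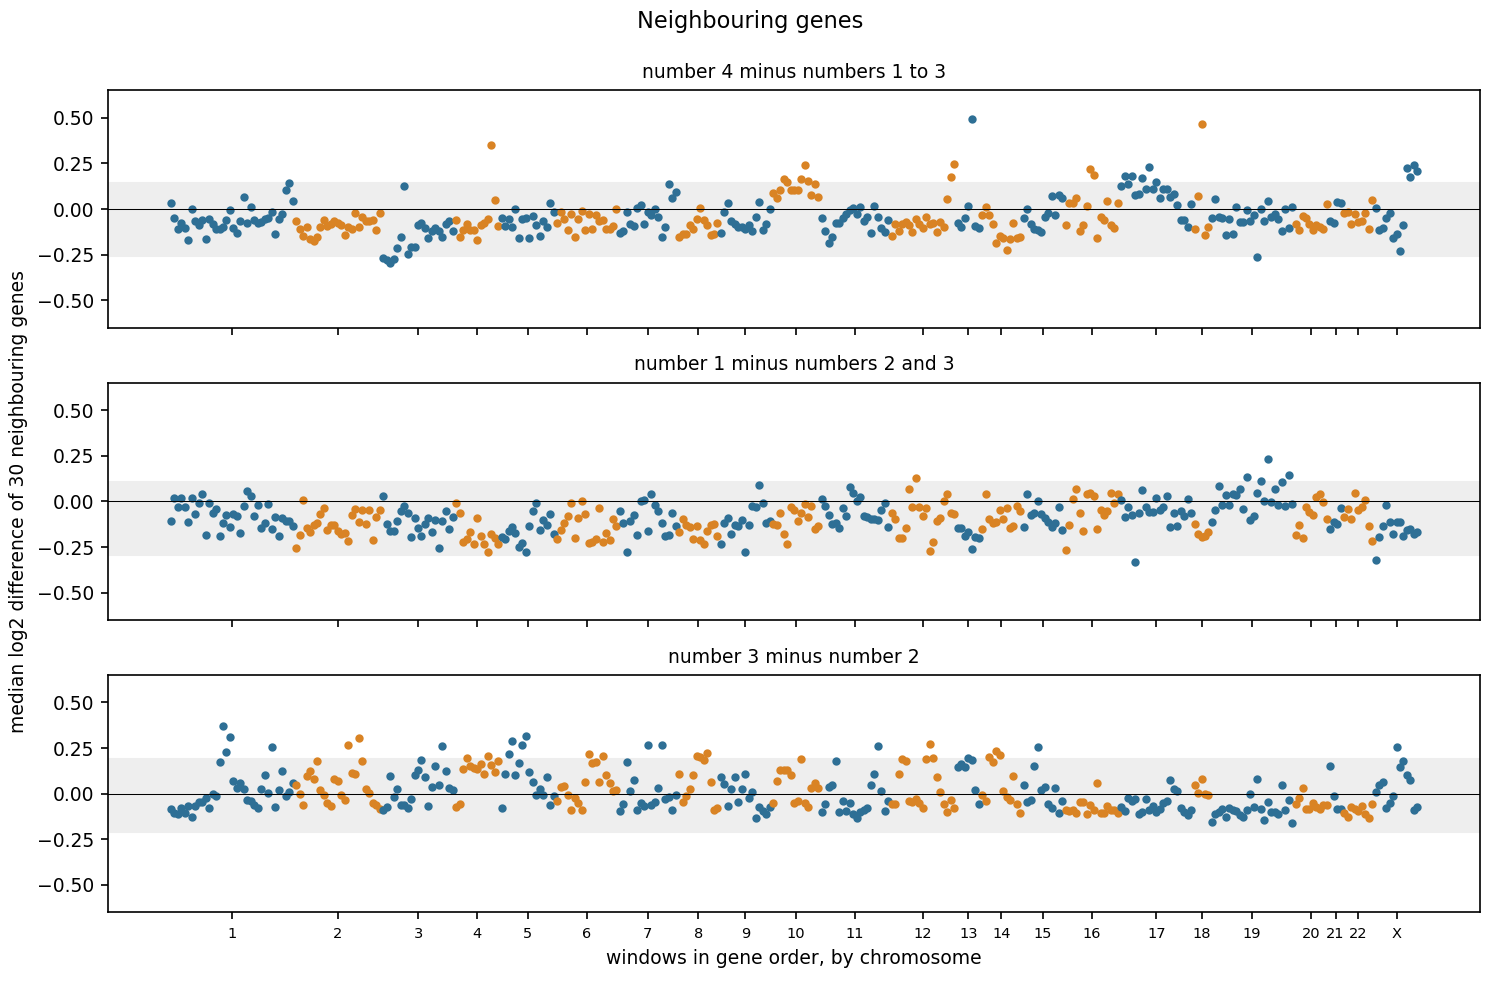
Median log2 difference of 30 neighbouring protein-coding genes (y axis) for windows in gene order by chromosome (x axis, alternating colours), for number 4 minus numbers 1 to 3, number 1 minus numbers 2 and 3, and number 3 minus number 2. The grey band is 0.2 either side of the overall median; in the top panel 21 windows lie above it and 5 below, with the highest at 0.49 on chromosome 13.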

How the data were processed

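Poly(A) RNA of 12 HEK 293T libraries was analysed from estimated counts per gene deposited by the authors, whose processing notes name fastp and kallisto; versions, genome build, annotation and strand were not given in the sources used. Counts were rounded, scaled by TMM and tested in edgeR 4.0.16 (R 4.3.3; quasi-likelihood, robust) with hairpin group and number 4 as terms, on 26366 of 85298 identifiers kept by edgeR's expression filter, with Benjamini-Hochberg adjustment at 0.05. Alternatives used limma 3.58.1, DESeq2 1.42.0, other scalings, filters and references, and each library left out. The code was tested on simulated data.

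Members and gene lists were chosen with earlier results of these data known. Named genes were the 4 markers and SIDT2, up to 14 called genes per direction that averaged 5 CPM or more and did not overlap (by size of change), up to 4 members per list with the smallest p, and the 3 genes most like each marker; other named genes were chosen after their values were seen. Not every gene meeting these rules is reported here. Libraries with the same number deviated together (r of 0.27 to 0.81 over 12 pairs), and counts with number as a block are given beside the list counts they change. Number 4 is compared between blocks, so the block does not pair its libraries with the others. P-values rest on the spread among these libraries alone; with 4 numbers, an exact permutation over numbers cannot go below 0.25. Gene types and chromosomes came from GENCODE and sequences from RefSeq.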

Additional observations from a re-analysis of the deposited data

Results flagged for a closer look

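The share of counts in the 100 most abundant genes was 22.07% in shRNA-D 3, far from the other shRNA-D libraries (20.6% to 20.7%). It was the only one of 62 sets in which a library stood apart in this way by Dixon's criterion, and chance alone gives about 1 in 20. The sets were the 4 libraries of a hairpin group for library measures and the 9 libraries of numbers 1 to 3 for named genes. The library with number 4 in that group was at 20.7%.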

How the results depend on the processing

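The direction of all 225 named called genes was kept under every alternative in which they were tested. The counts of calls were not stable. They were 975 higher and 1106 lower with a mean of at least 5 CPM, where fewer genes were tested, 336 and 531 with number as a random effect, 3165 and 3675 with a reference of numbers 2 and 3, 6 and 9 in the scramble libraries alone, and 391 and 650 in the knockdown libraries alone, which hold fewer samples. The fit with the replicate number as a block gave 3684 higher and 4338 lower, with 4 genes for the interaction with hairpin. Number 4 is compared between blocks there, and the spread among numbers 1 to 3 is left out of the error. The common coefficient of variation was 12.1% in it and 20.2% in the main fit. All 225 named calls were kept, which with the smaller error is no check of their stability. DESeq2 called 18 genes for the interaction. Leaving out 1 library gave 414 to 1606 higher, 700 to 2063 lower and 0 to 1 for the interaction. Of the 225 named calls, 113 were lost in at least 1 of these 12 fits and 116 with number as a random effect. Scaling moved the share of calls that were higher from 43.1% to 49.4% (upper quartile) and 51.7% (library totals). SIDT2, not called, ranged from -0.017 to 0.088 when 1 library was left out, changing sign without shRNA-D replicate 1 (-0.0074) and without shRNA-D replicate 4 (-0.017). Where calls changed, the cause was not tested. Estimated counts carry assignment error that the depth of 68737400 or more counts per library does not remove.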
